A study of Mus musculus with 4 samples.

Results

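The sodium pump genes Atp1b1, Atp1b2, Atp1b3, Atp1b4, Fxyd1, Fxyd3 and Fxyd5, were followed in whole back skin of mice that lacked the clock factor Bmal1 (gene symbol Arntl) and of mice that kept 1 copy. They are 7 of the 19938 genes that had a probe set paired with a single symbol, through 8 of 21789 such probe sets, and all 8 lay above the filter on low signal. The genes were chosen by family, around the KO minus het difference of Atp1b4 in these same arrays, which was already known, and the question was whether that higher signal is shared by the subunits of muscle. Expression was measured on Affymetrix whole-transcript arrays, 1 per mouse. The het group was 2 C57Bl6 mice with 1 mutant and 1 wild-type Bmal1 allele, and the KO group was 2 C57Bl6 mice with both copies deleted in the germline, so the loss was present in every tissue. All 4 mice were sampled at postnatal day 22 and at ZT22, 22 h after lights on, when hair follicles rest (telogen). The design text calls the mice littermates. Values are log2 signals after quantile normalisation of the 4 arrays, differences are KO minus het, and errors are SDs over 2 arrays or limma's moderated SEs.

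The sodium pump, Na,K-ATPase, uses ATP to carry sodium out of a cell and potassium in, and so sets the ion gradients on which excitability and transport depend. Its catalytic alpha subunit needs a glycosylated beta subunit to fold and reach the surface, and small single-span proteins of the FXYD family bind the pump and tune its ion affinity. Atp1b1 encodes the widespread beta subunit, Atp1b2 the adhesion molecule on glia, which is also made in fast muscle fibres, and Atp1b3 a further widely made form. Atp1b4 encodes a muscle protein that in placental mammals sits in the inner nuclear membrane of muscle cells and no longer serves as a pump subunit. Fxyd1 encodes phospholemman, the FXYD protein of heart and skeletal muscle, while Fxyd3 and Fxyd5 are made mainly in epithelia. Mouse back skin carries a thin sheet of skeletal muscle under the dermis, so that whole skin RNA holds muscle transcripts as well as those of epidermis, dermis, fat and glands.

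The beta genes differ in the DNA before their starts, which is shown because Atp1b4 lies at one end of the measured responses and Atp1b3 at the other. The sequences are the 250 bases before the outermost RefSeq start in GRCm38.p6, 5′ to 3′ on the gene's strand, and capitals mark every match to a motif searched. They lie at chrX:38315872-38316121 on the plus strand for Atp1b4, at chr1:164458356-164458605 on the minus strand for Atp1b1 and at chr9:96364432-96364681 on the minus strand for Atp1b3.
Atp1b4: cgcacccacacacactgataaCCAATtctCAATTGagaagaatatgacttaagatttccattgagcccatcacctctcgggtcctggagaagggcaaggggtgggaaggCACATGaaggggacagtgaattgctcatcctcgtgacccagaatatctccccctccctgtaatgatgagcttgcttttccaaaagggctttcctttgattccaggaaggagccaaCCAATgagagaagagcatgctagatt
Atp1b1: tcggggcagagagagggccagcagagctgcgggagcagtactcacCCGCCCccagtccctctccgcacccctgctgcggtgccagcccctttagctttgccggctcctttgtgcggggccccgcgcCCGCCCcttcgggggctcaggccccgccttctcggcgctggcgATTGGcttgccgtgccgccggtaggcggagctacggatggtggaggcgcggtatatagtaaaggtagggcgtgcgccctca
Atp1b3: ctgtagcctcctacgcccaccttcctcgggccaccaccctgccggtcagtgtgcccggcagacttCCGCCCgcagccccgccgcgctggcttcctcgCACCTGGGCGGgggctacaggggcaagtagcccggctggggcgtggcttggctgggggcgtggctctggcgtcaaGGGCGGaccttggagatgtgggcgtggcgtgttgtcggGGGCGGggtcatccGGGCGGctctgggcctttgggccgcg

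Of the 7 genes, 6 were matched in the promoter table, and Atp1b2 was not. The Atp1b4 window was 48.4% G and C, near the median of 52.4% over 32851 windows, and held 3 CpG dinucleotides, below the median of 6. The Atp1b1 and Atp1b3 windows each held 24 CpG, at 70.4% and 73.6% G and C. In Atp1b1 the far end of the window overlaps the annotated noncoding gene Gm32391. The motifs were searched on both strands. The clock E-box CACGTG, bound by BMAL1 with CLOCK, was in none of the printed windows and is in 6.02% of all windows, and it occurs once before a second, inner start of Atp1b3. The general E-box CANNTG, which includes CACGTG and the myogenic form CAGCTG, is in 66.2% of all windows; Atp1b4 held 2 and Atp1b3 held 1, which overlaps a GC box, while CAGCTG (13% of all windows) was in none of the printed windows. The CCAAT box, in 33.8%, had 2 matches before Atp1b4 and 1 before Atp1b1. The GC box GGGCGG, in 32.7%, had 5 before Atp1b3 and 2 before Atp1b1 and none before Atp1b4. The D-box TTATGTAA (0.819% of all windows), the nuclear receptor element AGGTCA (14%) and the TATA box TATAAA (12.4%) had no match in the printed windows.

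Depth has no direct counterpart on arrays, and the number of arrays limits the precision. The targeted gene, Arntl, read 8.90 and 9.08 in the het arrays and 8.29 and 8.16 in the KO arrays, so the labels were borne out in all 4. Xist, which marks an inactive X chromosome, read between 12.26 and 12.41 in all 4 arrays, so that the X-linked Atp1b4 was compared between mice with like Xist signals. Correlations between arrays, on the deposited values, ran from 0.942 to 0.981. The lowest was between het array 2 and KO array 1, and the highest between het array 1 and KO array 1. Within a genotype they were 0.963 for het and 0.974 for KO, so the arrays did not group by genotype. Labelled skin was borne out by keratin genes of the epidermis such as Krt5, at 12.36 to 12.98. Over 16341 tested probe sets, 323 passed limma's adjusted p threshold of 0.05, a share of 1.98%, with 241 higher and 82 lower in the KO arrays. It was 77 without KO array 1 and 986 without het array 1. The count was 0 when probe sets annotated to several genes were tested along with the others, where 2713 had an unadjusted p under 0.05, so calls at this threshold are given below with both values.

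Among the beta genes, knockout skin had higher signals for Atp1b4, Atp1b2 and Atp1b1, and Atp1b3 was the exception. Atp1b4 was 3.18-fold higher in the KO mean, Atp1b2 1.91-fold and Atp1b1 1.48-fold, while the 2 Atp1b3 probe sets were at 0.943 and 0.917 of the het mean. In all of the first 3 genes both KO arrays lay above both het arrays, as they did in 27.8% of all tested probe sets. These figures come from the contrast that chose Atp1b4, so that nothing is read from the count. The median difference over all tested probe sets was 0.02, and their middle 90% ran from -0.34 to 0.44.

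Atp1b4 read 6.79 and 6.94 in the het arrays and 8.72 and 8.35 in the KO arrays. The genotypes did not overlap, and the gap between the higher het and the lower KO array was 1.41. The difference was 1.67 (SE 0.15, n = 2 per genotype), the 4th highest of the 16341 tested probe sets. This gene was taken up because of that difference, which is therefore a description with no test. Its mean signal stood at the 47.6th percentile of probe sets with 1 gene, so het skin gave a signal not far above the filter value of 6.67, and a signal near background understates a fold change.

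Atp1b2 rose in the KO arrays. It read 8.88 and 8.83 in the het arrays and 9.92 and 9.66 in the KO arrays, with a gap of 0.77 between the genotypes. The difference was 0.93 (SE 0.12, n = 2 per genotype; adjusted p = 0.0097 by limma). The adjusted p was 0.094 with probe sets of several genes included and 0.266 with all probe sets of the array, so the call, though not the difference, depended on which probe sets were tested. With 1 array left out the difference ran from 0.80, without KO array 1, to 1.07, without KO array 2.

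Atp1b1 read 9.99 and 9.67 in the het arrays and 10.47 and 10.32 in the KO arrays. The KO arrays were both higher, by at least 0.33, and the difference of 0.56 (SE 0.13, n = 2 per genotype) did not pass limma's threshold (adjusted p = 0.068). It passed with the values as deposited (0.67, adjusted p = 0.039), with medians centred (0.70, adjusted p = 0.018) and without het array 1 (0.73, adjusted p = 0.019), and was 0.40 without het array 2 (adjusted p = 0.229).

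Atp1b3 was measured by 2 probe sets, which gave nearly the same pattern over the arrays (root mean square difference 0.02 after centring). The first read 12.07 and 11.73 in the het arrays and 11.86 and 11.77 in the KO arrays, and the second 11.87 and 11.48 against 11.59 and 11.51. In both, the KO arrays lay between the het arrays. The differences of -0.08 (SE 0.14) and -0.12 (SE 0.14, n = 2 per genotype) did not pass limma's threshold (adjusted p = 0.793 and 0.692), and both turned positive without het array 1.

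**Figure D1:**
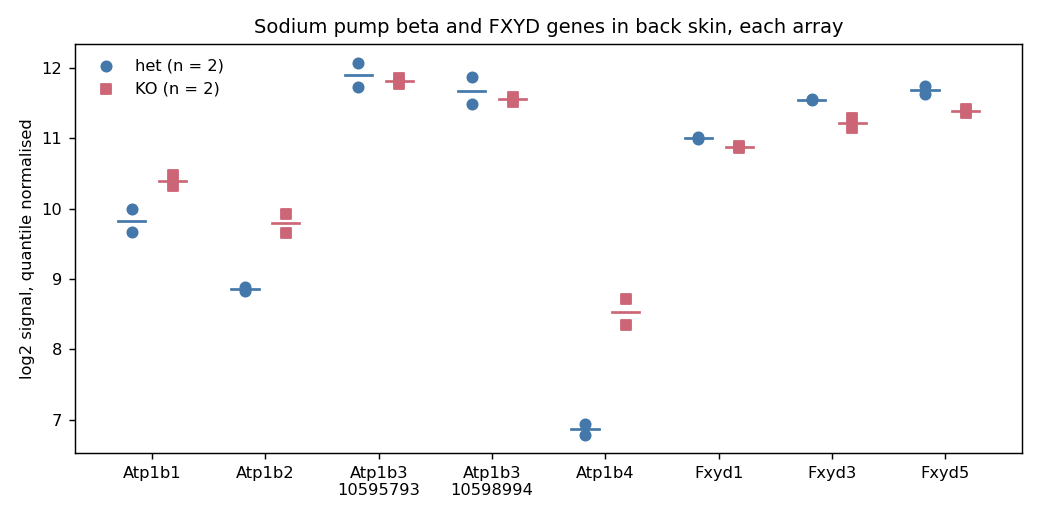
Log2 signal (vertical axis, quantile normalised) of each probe set of the 7 genes in each array, with het arrays as circles, KO arrays as squares and horizontal lines at the means of 2 arrays. The KO arrays lie above the het arrays for Atp1b1, Atp1b2 and Atp1b4, between them for both Atp1b3 probe sets, and below them for the 3 FXYD genes.

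The FXYD genes did not follow Atp1b4, Atp1b2 and Atp1b1, and the beta gene Atp1b3 did not follow those 3 either. Fxyd1, Fxyd3 and Fxyd5 each had both KO arrays below both het arrays, as did 22.1% of all tested probe sets, and the differences were small. The 2 genotypes thus did not overlap in 6 of the 7 genes, where 49.8% of all tested probe sets showed no overlap. The 6 include Atp1b4, which was chosen for its difference, so nothing is read from that count. Fxyd1, the muscle form, read 11.02 and 10.99 in the het arrays and 10.88 and 10.86 in the KO arrays, a difference of -0.13 (SE 0.11, n = 2 per genotype, limma adjusted p = 0.571). Its arrays within a genotype were close (SD 0.02 in het and 0.01 in KO), but after median centring the difference was 0.00. With the values as deposited Fxyd1 read 10.99 and 10.93 in het and 10.91 and 10.94 in KO arrays, which overlap. Fxyd3, an epithelial form, read 11.55 and 11.54 against 11.29 and 11.14, a difference of -0.33 (SE 0.11, limma adjusted p = 0.170). Fxyd5, which also weakens cell adhesion, read 11.74 and 11.63 against 11.36 and 11.41, a difference of -0.30 (SE 0.11, limma adjusted p = 0.200). None of the 3 passed the threshold. Among markers of the epithelia that make Fxyd3 and Fxyd5, the keratinocyte list had a median difference of 0.16 with 6 of 8 tested genes higher and a summed log2 signal of 15.01 to 15.38 in het and 15.21 to 15.40 in KO arrays. The sebocyte list had a median of 0.67 with 6 of 6 higher, and summed signals of 12.92 to 13.34 in het and 13.88 to 13.91 in KO arrays. Other cell types were mixed: the leukocyte list had a median of -0.13 with 4 of 6 tested genes lower. The smooth muscle list had a median of -0.26 with 6 of 7 lower. Endothelium and Schwann cells were each at -0.05, and fibroblasts (0.07), adipocytes (0.08) and melanocytes (0.02) had positive medians. The part of any cell type in the FXYD values was not tested.

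Fxyd1, Fxyd3 and Fxyd5 are neighbours on chromosome 7, where the RefSeq order is Fxyd5, Fxyd7, Fxyd1, Lgi4 and Fxyd3. Fxyd7, an FXYD gene of nervous tissue, differed by -0.26 (SE 0.12). Lgi4, which lies between Fxyd1 and Fxyd3 and encodes a secreted protein needed for myelination, was chosen for its position after the values were seen and differed by -0.03 (SE 0.14), with overlapping genotypes. Of the FXYD genes elsewhere, Fxyd4 differed by -0.29 (SE 0.12), Fxyd2, a regulator of the kidney pump, by -0.24 (SE 0.14) and Fxyd6 by 0.06 (SE 0.12). Over the 7 tested FXYD genes, 6 had both KO arrays below the het range and 0 above, with a median difference of -0.26. Those shares over all tested probe sets were 22.1% below and 27.8% above. With the values as deposited the FXYD counts were 5 and 1, against 19.3% below and 37.2% above, and after median centring 4 and 1, against 14.9% and 39.8%. None of the 7 passed limma's adjusted p threshold. At an unadjusted p under 0.05, 3 of them, Fxyd3, Fxyd4 and Fxyd5, were lower, and 6.38% of all tested probe sets were lower at that level. The count of 3 was 0 after median centring and without KO array 2, 1 without het array 1 or without KO array 1, and 4 with the replicate number as a block. In either direction the share over all tested probe sets was 17.9%.

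Of the other pump genes fixed for comparison, 11 in all, 8 had a probe set with 1 gene, 7 were tested, and none passed the adjusted threshold in either direction. At an unadjusted p under 0.05, 1 was higher and 1 lower, where 11.6% and 6.38% of the tested probe sets were, and the median difference was -0.18. After median centring and with the replicate number as a block 1 gene passed as higher, where 780 and 850 of all tested probe sets did. The tested gene with the smallest p was Atp12a, the catalytic subunit of the nongastric proton-potassium pump. It read 7.28 and 6.73 in the het arrays and 7.98 and 7.49 in the KO arrays, a difference of 0.74 (SE 0.21, limma adjusted p = 0.104). The gastric proton pump genes Atp4a and Atp4b differed by 0.19 (SE 0.14) and -0.18 (SE 0.13). Atp1a4, the alpha subunit of sperm, lay below the filter and read 5.97 to 6.31 over the 4 arrays. The other alpha subunits were not analysed here, so the beta values stand without those of their catalytic partners.

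**Figure D2:**
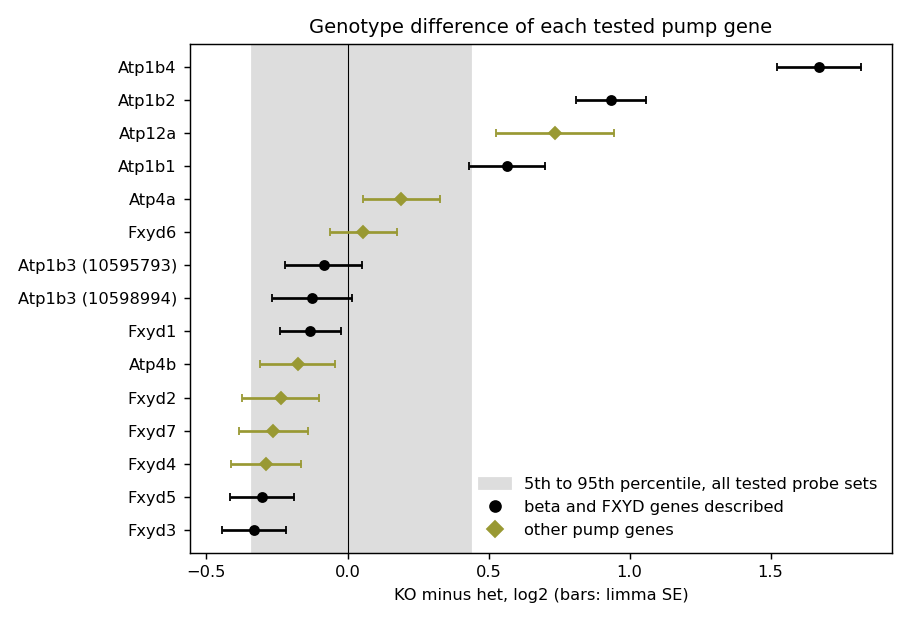
KO minus het difference on the log2 scale (horizontal axis) with limma's SE for each tested pump gene, circles for the 7 genes described and diamonds for the others, over a grey band from the 5th to the 95th percentile of all tested probe sets (-0.34 to 0.44). Atp1b4 at 1.67, Atp1b2 at 0.93, Atp12a at 0.74 and Atp1b1 at 0.56 lie to the right of the band, and the lowest value is that of Fxyd3 at -0.33.

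Genes of fast muscle fibres were higher in the same arrays as Atp1b4. All 15 tested genes of the fast-fibre list had both KO arrays above both het arrays, against 27.8% of all tested probe sets, with a median difference of 0.63. The list was chosen with earlier results of these data known, so its counts are a description and nothing is read from them about Atp1b4. Of the 15, 5 passed limma's adjusted threshold, against 1.98% of all. That count was 7 as deposited, where 544 of all tested probe sets passed, and 11 after median centring, where 913 did. It was 7 with a 50th percentile filter, where 441 of 10894 did, and 10 with the replicate number as a block, where 1235 did. Without KO array 1 the count was 1, without het array 2 it was 7 and without KO array 2 it was 8. With probe sets of several genes included none of the 15 passed, and 14 were higher at an unadjusted p under 0.05. In that fit 1692 of all 17557 tested probe sets were higher at that level. The 4 with the smallest p were Casq1, the calcium buffer of the fast-fibre reticulum (0.82, SE 0.12), Myh1, a fast myosin heavy chain (1.32, SE 0.21), Mybpc2, fast myosin-binding protein C (0.81, SE 0.13), and Mylpf, a fast myosin light chain (0.84, SE 0.14). The summed log2 signal of the list was 15.95 in both het arrays and 16.58 and 16.35 in the KO arrays. In bulk skin more cells of a type and more RNA per cell cannot be told apart.

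Slow-fibre genes split. Of 10 tested, 4 were higher and 6 lower, with a median of -0.19, and 2 (against 1.98% of all tested probe sets) rose at limma's adjusted threshold: Casq2, the calcium buffer of slow and cardiac muscle (2.45, SE 0.15), and Csrp3, a muscle LIM protein (1.65, SE 0.35). Neither passed with probe sets of several genes included (adjusted p = 0.069 and 0.199), and Csrp3 did not pass without het array 1 (1.14, adjusted p = 0.056), without KO array 1 (1.13, adjusted p = 0.164), with no filter (adjusted p = 0.10), under a robust prior (SE 0.69, adjusted p = 0.408) or with limma's trend left off (adjusted p = 0.068). The median was -0.46 without het array 1 and -0.02 without het array 2, -0.05 as deposited and -0.02 after median centring, and 1.6 over the 4 genes left by a 50th percentile filter. Over the alternatives that kept every array 0 to 3 genes passed as higher and 0 to 3 as lower. The 3 lower were with the replicate number as a block, where 850 of all tested probe sets passed as higher and 385 as lower. The het arrays differed in this list, with summed log2 signals of 10.73 in array 1 and 11.80 in array 2, while the KO arrays gave 12.34 and 11.77. Myh7, the slow myosin heavy chain, read 7.55 and 8.31 against 7.27 and 7.15. The het arrays were much closer for Atp1b4, at 6.79 and 6.94.

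Because Atp1b4 is made most strongly in muscle around birth, genes of developing muscle were set beside it. None of the 9 tested passed in either direction, and their median difference was -0.07, with 4 higher and 5 lower. The median turned positive without a filter (0.02), with a 50th percentile filter (0.06), with all probe sets (0.02), without het array 2 (0.0046) and without KO array 2 (0.05). At an unadjusted p under 0.05, 3 were higher and 1 lower, where 11.6% and 6.38% of the tested probe sets were. Of the 16 alternatives, 6 had 1 gene past the adjusted threshold as higher, the scalings as deposited and by median centring among them. In these scalings 459 and 780 of all tested probe sets passed as higher. Myl4, the embryonic and atrial myosin light chain, read 8.75 and 8.70 in the het arrays and 9.18 and 9.24 in the KO arrays (0.49, SE 0.11, limma adjusted p = 0.056). Myh8, the perinatal myosin heavy chain, differed by 0.37 (SE 0.14) and Cdh15, a cadherin of muscle precursors, by 0.30 (SE 0.13). Chrng, the fetal acetylcholine receptor subunit, differed by -0.36 (SE 0.14). The summed log2 signal of the list, 11.72 and 11.61 in the het arrays, was 11.80 and 11.48 in the KO arrays. Myh3, the embryonic myosin heavy chain, lay below the filter.

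Set against the mean of the fast-fibre list in each array, with both centred over the 4 arrays, the pump genes separated. Atp1b4 stood at -0.54 and -0.50 in the het arrays and at 0.56 and 0.48 in the KO arrays, so it was higher in the KO mean by 1.04 beyond the fast-fibre mean. Atp1b4 was taken up for its large difference in these arrays, so nothing is read from that excess. Differences of single genes in the list ran from 0.16 for Myl1 to 1.32 for Myh1. For Atp1b2 the difference beyond the fast-fibre mean was 0.31, with arrays at -0.07 and -0.24 against 0.14 and 0.17. For Atp1b1 it was -0.06, with overlapping arrays, and for Fxyd1 it was -0.76, with 0.45 and 0.31 against -0.52 and -0.24. Thus of the 2 muscle genes taken by family, Atp1b2 and Fxyd1, the first moved up with the fast-fibre list in whole skin and the second did not. The sebocyte list rose in the same arrays, with a median of 0.67 and 6 of 6 tested genes higher, so such a rise was not particular to muscle genes. The mean signal of Fxyd1 was high, at the 96.3rd percentile, against the 82.0th for Atp1b2. Which cells gave the Fxyd1 signal was not tested, so its change within muscle is not known. The within-array log2 ratio of Atp1b2 to Fxyd1 was higher in the KO arrays by 1.07. Both KO arrays were above the het arrays for Atp1b2 and below them for Fxyd1, so the ratio could not overlap. An exact two-sided permutation test therefore had to give p = 0.333, the smallest that 2 arrays against 2 allow. Nothing is read from that test.

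**Figure D3:**
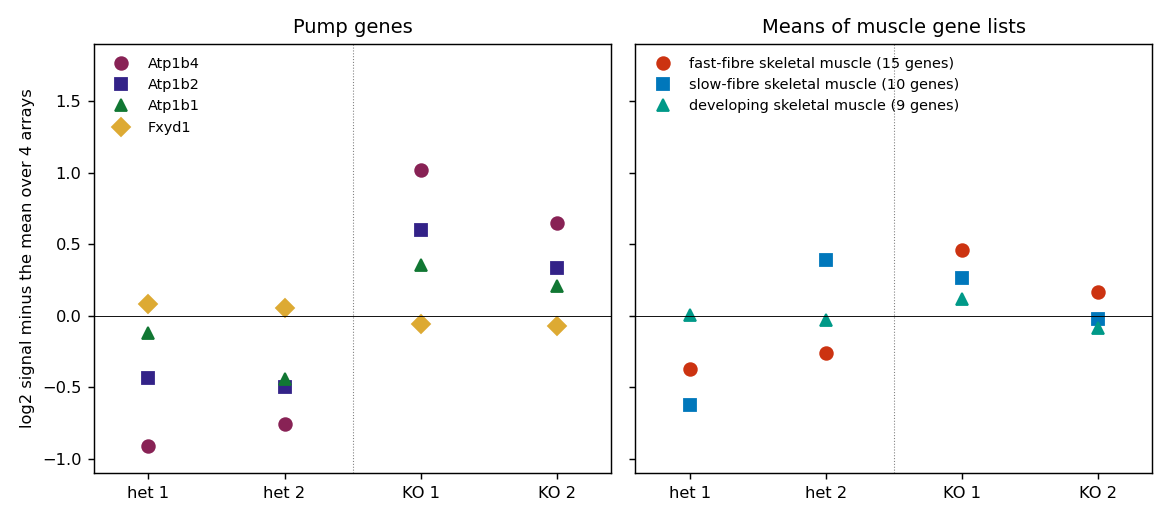
Log2 signal minus the mean over the 4 arrays (vertical axis) in each array for Atp1b4, Atp1b2, Atp1b1 and Fxyd1 on the left and for the means of the fast-fibre, slow-fibre and developing muscle lists on the right. Atp1b4 has the widest separation of the pump genes shown, Fxyd1 is nearly flat, and the slow-fibre list is lowest in het array 1 and highest in het array 2.

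The genes whose pattern over the 4 arrays was most like that of Atp1b4 were found by the root mean square difference of centred log2 values. In order they were Myom3, a protein of the sarcomere's M band (0.134), Myl6b, a myosin light chain (0.144), Ampd1, the muscle AMP deaminase (0.173), Mybph, a myosin-binding protein (0.175), Hspb7, a small heat shock protein of muscle (0.177), and Igf2, a growth factor (0.181). Their differences ran from 1.33 for Mybph to 1.69 for Myom3. The match rests on 4 values per gene and mostly on the size of the difference. Among the 7 genes, the nearest to Atp1b4 was Atp1b2, at 0.378, and their other probe sets lay between 0.584 and 1.01. The 6 genes nearest to Atp1b2 itself were Chrnb1 (0.028), Dmpk (0.041), the keratin gene Krt6a (0.049), Col6a6 (0.054), Casq1 (0.069) and Klk10 (0.072), so they were not all muscle genes. The FXYD genes were close to each other, with Fxyd3 and Fxyd5 at 0.078.

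Other ion transport genes of muscle were tested alongside. Of 9 tested genes for channels and carriers of the muscle surface, 8 were higher, with a median difference of 0.30, and Kcnj2 alone passed, against 1.98% of all tested probe sets. It encodes an inward rectifier that holds the resting potential, and read 7.53 and 7.29 in the het arrays and 8.01 and 8.04 in the KO arrays (0.61, SE 0.13, limma adjusted p = 0.044). It did not pass with probe sets of several genes included (adjusted p = 0.157), without het array 2 (0.49, adjusted p = 0.110), without KO array 1 (adjusted p = 0.218) or without KO array 2 (adjusted p = 0.160). Nor did it with no filter (adjusted p = 0.092) or with limma's trend left off (adjusted p = 0.059). Over the alternatives that kept every array 0 to 3 genes of the list passed as higher, 3 after median centring and with the replicate number as a block. In those fits 780 and 850 of all tested probe sets passed as higher. Cacna1s, the voltage sensor of muscle, differed by 0.66 (SE 0.18), its partner Cacng1 by 0.63 (SE 0.19), and Slc8a3, a sodium-calcium exchanger, by 0.31 (SE 0.12). Of 9 tested calcium pump genes 8 were higher, with a median of 0.08, which was -0.0011 without KO array 1, 0.20 without KO array 2, 0.13 without het array 1, 0.05 without het array 2, 0.19 as deposited and 0.23 after median centring. None passed the adjusted threshold in either direction, and 3 were higher at an unadjusted p under 0.05, as were 11.6% of the tested probe sets. With the values as deposited, after median centring, with a 50th percentile filter, under a robust prior and with the replicate block, 1 gene passed as higher. Over all tested probe sets 459, 780, 326, 324 and 850 passed as higher in those fits. The 3 genes higher at an unadjusted p under 0.05 were Atp2a1, the fast-fibre calcium pump (0.38, SE 0.15), and its small inhibitors Mrln (0.59, SE 0.14) and Sln (0.42, SE 0.15). Atp2b2, a plasma membrane calcium pump, differed by -0.13 (SE 0.14). The 6 tested partners and regulators of the sodium pump had a median difference of 0.00, and none passed in either direction, at the adjusted threshold or at an unadjusted p under 0.05. They include Sgk1 (-0.03, SE 0.11) and Sik1 (-0.02, SE 0.11), kinases that raise pump activity, Agrn, which encodes agrin (0.11, SE 0.12), and Snw1, a transcriptional coregulator that binds the Atp1b4 protein (0.05, SE 0.13).

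**Figure D4:**
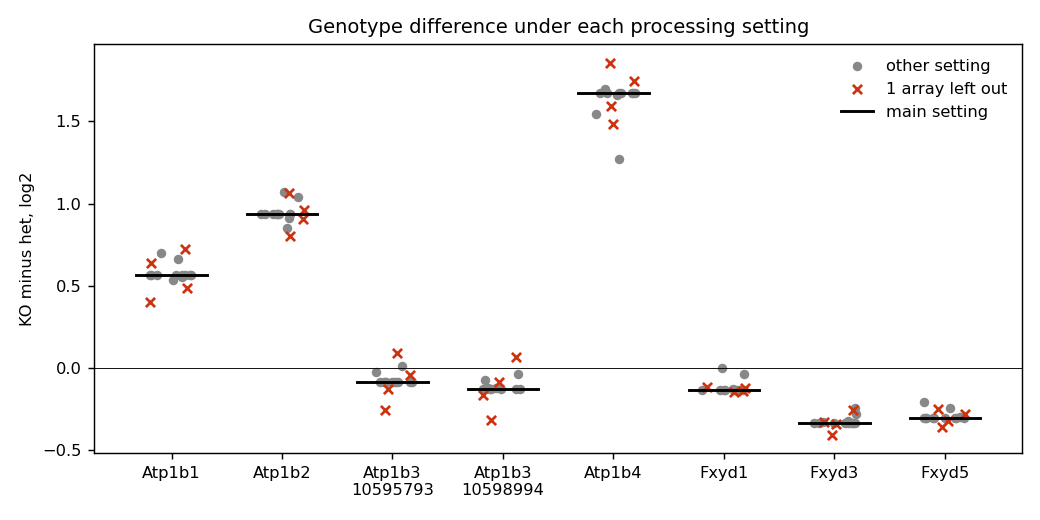
KO minus het difference on the log2 scale (vertical axis) of each probe set of the 7 genes, with a line for the setting used in the text, grey points for other processing settings and red crosses for fits with 1 array left out. Atp1b4 stays between 1.27 and 1.86, Atp1b2 between 0.80 and 1.07 and Atp1b1 between 0.40 and 0.73, while both Atp1b3 probe sets and Fxyd1 cross 0 or touch it.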

How the data were processed

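The authors deposited 1 column per mouse, taken here as log2 signals from their range and made with PLIER 2.0 and Affymetrix Expression Console 1.1.1, which the submitters' processing notes name. Their scale and scaling across arrays: not given in the sources used here. Quartiles of the deposited arrays differed by up to 0.337, above the tolerance of 0.1, so all 4 were quantile normalised. Of 35557 probe sets, 21789 were annotated to 1 gene, 1621 to several and 12147 to none; 21698 symbols were matched by gene ID to GRCm38.p6. Tested were the 16341 with 1 gene and a mean above the 25th percentile. KO was compared with het in limma 3.58.1 (R 4.3.3; lmFit, eBayes with trend, 2 residual degrees of freedom), adjusted by Benjamini-Hochberg over all tested probe sets at a threshold of 0.05. The fit was tested on simulated data. Lists use the probe set with the highest mean per gene.

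Members and lists were chosen with earlier results of these data known. The rule named all 7 members, the tested pump genes outside them, at most 4 genes per related or muscle list by smallest p, and 6 genes like Atp1b4. Csrp3 and Casq2 were counted with slow fibres. Lists for smooth muscle (median -0.26), fibroblasts (0.07), adipocytes (0.08), endothelium (-0.05), Schwann cells (-0.05), leukocytes (-0.13) and melanocytes (0.02) were also measured. Alternatives covered scaling, filter, offset, variance prior, probe sets, the replicate number as a block and each array left out. Sequences are from RefSeq, GRCm38.p6.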

Additional observations from a re-analysis of the deposited data

How the results depend on the processing

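The choice of probe sets tested decided the adjusted calls. The count at limma's adjusted p under 0.05 was 323 over probe sets with 1 gene and 0 both with those of several genes included and with all probe sets, 2 settings added after the data were seen; unadjusted p under 0.05 gave 2713 and 3423 there. Limma's prior degrees of freedom were 7.73, 4.12 and 2.82 in these 3 fits. The adjusted count was 544 with the values as deposited, 913 after median centring, 145 without a filter and 1235 with the replicate block. With 1 array left out it ran from 77 (without KO array 1) to 986 (without het array 1), and the unadjusted count of 2933 ran from 1685 to 3720. Of the unadjusted calls 64.4% were higher in KO, 72% as deposited and 79.3% after median centring.

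Atp1b4 was at 1.27 with an offset of 64, fell below a 50th percentile filter, and ran from 1.49 to 1.86 with 1 array left out. Atp1b2 had adjusted p = 0.094 and 0.266 in the fits with more probe sets (difference 0.93 in both) and between 0.00065 and 0.0435 in all others run. Atp1b1 passed as deposited (0.67), with medians centred (0.70), and with a 50th percentile filter, a robust prior or the replicate block (0.56 in each, adjusted p = 0.0462, 0.0469 and 0.0143), and ran from 0.40 to 0.73 with 1 array left out. Atp1b3 was at 0.013 after median centring for the first probe set. With 1 array left out its probe sets ran from -0.26 to 0.089 and from -0.32 to 0.067, the highest without het array 1. Fxyd1 was at 0.0022 after median centring. Fxyd3 and Fxyd5 kept their sign and did not pass in the 16 alternatives. The fast-fibre median ran from 0.43 to 0.78.

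The replicate block uses the number in the labels, which is not said to mark a litter; same-numbered arrays deviated together with a correlation of 0.167, over 2 pairs that fix each other's sign. The block changed no call of a member other than Atp1b1. Signal near background limits Atp1b4 most, at the 47.6th percentile of mean signal.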
